A study of Mus musculus with 12 samples.

Results

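The genes of hepatic bile acid synthesis, 10 of 23420 in the count tables, were followed through 12 libraries of mouse liver RNA. They were taken by symbol from a named set covering the classic route (Cyp7a1, Cyp8b1), the alternative route (Cyp27a1, Cyp7b1), the steps on the sterol rings (Hsd3b7, Akr1d1), the shortening and conjugation of the side chain (Acox2, Slc27a5, Baat) and the repressor SHP (Nr0b2). The set is one of names and uses no expression value, although it was drawn up with earlier results of these data known. All 10 passed the filter on low counts. The study asked what loss of Gdown1, an RNA polymerase II binding protein encoded by Polr2m, does to gene expression in hepatocytes with or without p53.

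The 6 groups held 2 libraries each, all from C57BL/6 mice with both Gdown1 alleles floxed. KO mice (Gdown1 flox/flox with Alb-Cre) were set against FF mice (Gdown1 flox/flox without Cre), both with p53 and 7 weeks of age. DKO mice (Gdown1 flox/flox, Alb-Cre, p53-/-) were set against p53KO mice (Gdown1 flox/flox, p53-/-), both 8 weeks of age. DKO TAM mice (Gdown1 flox/flox, p53-/-, with the inducible Alb-CreERT2) were set against p53KO TAM mice (Gdown1 flox/flox, p53-/-, no Cre named), both 24 hours after tamoxifen and with no age given. The albumin promoter drives Cre mainly in hepatocytes, while whole liver, which holds other cells too, was sequenced; the deletion in each cell type was not measured. Cre was present only where Gdown1 was deleted, and the effects of Cre and of the deletion cannot be told apart. The titles give each library of the KO, FF, DKO TAM and p53KO TAM groups a running number of its own, which the labels do not explain, and those of DKO and p53KO give none. Separate animals are not stated in so many words, so each p reflects the spread between these libraries, which may be technical in part.

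Bile acids are made from cholesterol in hepatocytes and secreted into bile. In the classic route CYP7A1 acts first on the sterol ring, and CYP8B1 adds the hydroxyl group that directs the product to cholic acid; in the alternative route CYP27A1 acts first on the side chain and CYP7B1 follows on the ring. Bile acids returning to the liver activate the nuclear receptor FXR (Nr1h4), which induces SHP, and SHP together with a hormone signal from the intestine represses Cyp7a1 and Cyp8b1. Synthesis also follows the time of day, through clock genes such as Dbp and Nr1d1.

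Promoter sequences of 6 of the 10 genes were found in the RefSeq set for GRCm38.p6, the assembly also called mm10. Those of Cyp8b1 and Nr0b2 are shown as the 250 bases before the annotated start, 5′ to 3′ on the gene's own strand. Cyp8b1 had the largest ratio of highest to lowest level over the libraries, and Nr0b2 was the only gene of the 10 called in none of the 3 deletion comparisons. Capitals mark 3 short motifs searched on both strands, which do not overlap each other here. They are CAAAGTCCA, a site bound by HNF4A, TCAAGG, a site of the receptor LRH-1 (Nr5a2), and CACGTG, the E-box bound by clock proteins.
Cyp8b1, chr9:121916306-121916555, minus strand: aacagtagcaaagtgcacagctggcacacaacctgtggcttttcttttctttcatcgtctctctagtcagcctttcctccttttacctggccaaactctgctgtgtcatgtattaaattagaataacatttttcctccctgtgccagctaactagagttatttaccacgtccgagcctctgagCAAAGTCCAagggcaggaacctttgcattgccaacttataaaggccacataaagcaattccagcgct
Nr0b2, chr4:133553126-133553375, plus strand: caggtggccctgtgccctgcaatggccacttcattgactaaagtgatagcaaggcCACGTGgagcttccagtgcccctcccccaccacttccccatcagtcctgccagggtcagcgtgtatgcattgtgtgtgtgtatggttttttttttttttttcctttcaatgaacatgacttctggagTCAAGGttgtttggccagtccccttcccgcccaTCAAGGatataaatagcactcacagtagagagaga
The HNF4A motif began at position -67 of Cyp8b1, counted from the start; these letters were present in 0.384% of 32851 promoter windows of 250 bases. The LRH-1 motif occurred in Nr0b2 at -68 and -35, and in 12.5% of all windows. The E-box stood at -195 of Nr0b2, and in 6.02% of all windows. The FXR inverted repeat was in neither window and in 0.00609% of all windows. These are matches of letters, with no binding measured.

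Depth was 4939408 to 8776369 counts per library, at which 3 counts equalled 0.254 to 0.678 CPM (counts per 1e6 counts). All levels below are CPM scaled by TMM, a method that takes most genes as unchanged between libraries. Polr2m fell in KO livers (log2 fold change -0.67 ± 0.13 SE, adjusted p = 0.0024) and in DKO livers (-0.70 ± 0.13, 2.4e-04), and stood at -0.36 ± 0.13 in DKO TAM livers (adjusted p = 0.063, edgeR). Scaling by library totals alone turned the DKO value to 0.068. Trp53 reads from the p53-/- livers stood at 2.79 to 10.01 CPM, against 7.94 to 22.5 CPM in the 4 libraries with p53, so these ranges alone do not check the genotype. Among controls Trp53 was lower in p53KO than in FF livers (-1.81 ± 0.31, adjusted p = 0.0087, edgeR). It was called higher in KO (0.93 ± 0.24, 0.013), DKO (1.48 ± 0.29, 5.0e-04) and DKO TAM livers (1.29 ± 0.28, 0.0039) than in their controls. Xist, a transcript of female cells, reached 11.01 CPM in KO 1 and 6.46 CPM in DKO TAM 1 and no more than 1.78 CPM elsewhere, and counts from chromosome Y were found in all 12 libraries; its bearing on the bile acid genes was not tested, and values without KO 1 are given where they change a call for one of the 10 genes. Summed CPM of 9 hepatocyte markers, led by Alb, was 72569 to 83557 in KO against 121433 to 126001 in FF livers, 40502 to 43270 in DKO against 134413 to 136985 in p53KO livers, and 62720 to 64869 in DKO TAM against 131265 to 133259 in p53KO TAM livers. Hepatocyte transcripts were thus abundant in every library, at a lower summed level in each deleted group. Alb alone averaged 17060 CPM in DKO TAM against 72668 CPM in p53KO TAM livers, most of the fall in that sum. In bulk liver, fewer hepatocytes and less of a transcript per hepatocyte cannot be told apart.

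With Gdown1 deleted, most of the bile acid enzymes were lower, and none was higher past the test. Between KO and FF livers 5 of 10 were called lower (Cyp27a1, Cyp7b1, Hsd3b7, Acox2, Baat), against 14.8% of all 13693 tested genes called and 7.88% called lower. Between DKO and p53KO livers 9 of 10 were called lower, all but Nr0b2, against 51.4% called and 25.7% called lower. Between DKO TAM and p53KO TAM livers 5 of 10 were called lower (Cyp27a1, Hsd3b7, Acox2, Slc27a5, Baat), against 18.7% called and 10.1% called lower. The libraries of the 2 groups did not overlap for 7, 9 and 8 of the 10 genes in these comparisons, beside 56.3%, 77% and 59.5% of all tested genes. Called means a Benjamini-Hochberg adjusted p under 0.05 over all tested genes in edgeR's quasi-likelihood test. The median log2 fold change of the 10 was -0.69, -2.33 and -0.87 in these comparisons, beside 0.02, 0.01 and 0.01 for all tested genes. With library totals alone these medians were -0.44, -1.57 and -0.52, beside 0.28, 0.78 and 0.36 for all genes. The 4 genes Cyp27a1, Hsd3b7, Acox2 and Baat were called lower in all 3 comparisons, which share no library, beside 3.7% of all tested genes called lower in all 3.

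**Figure D1:**
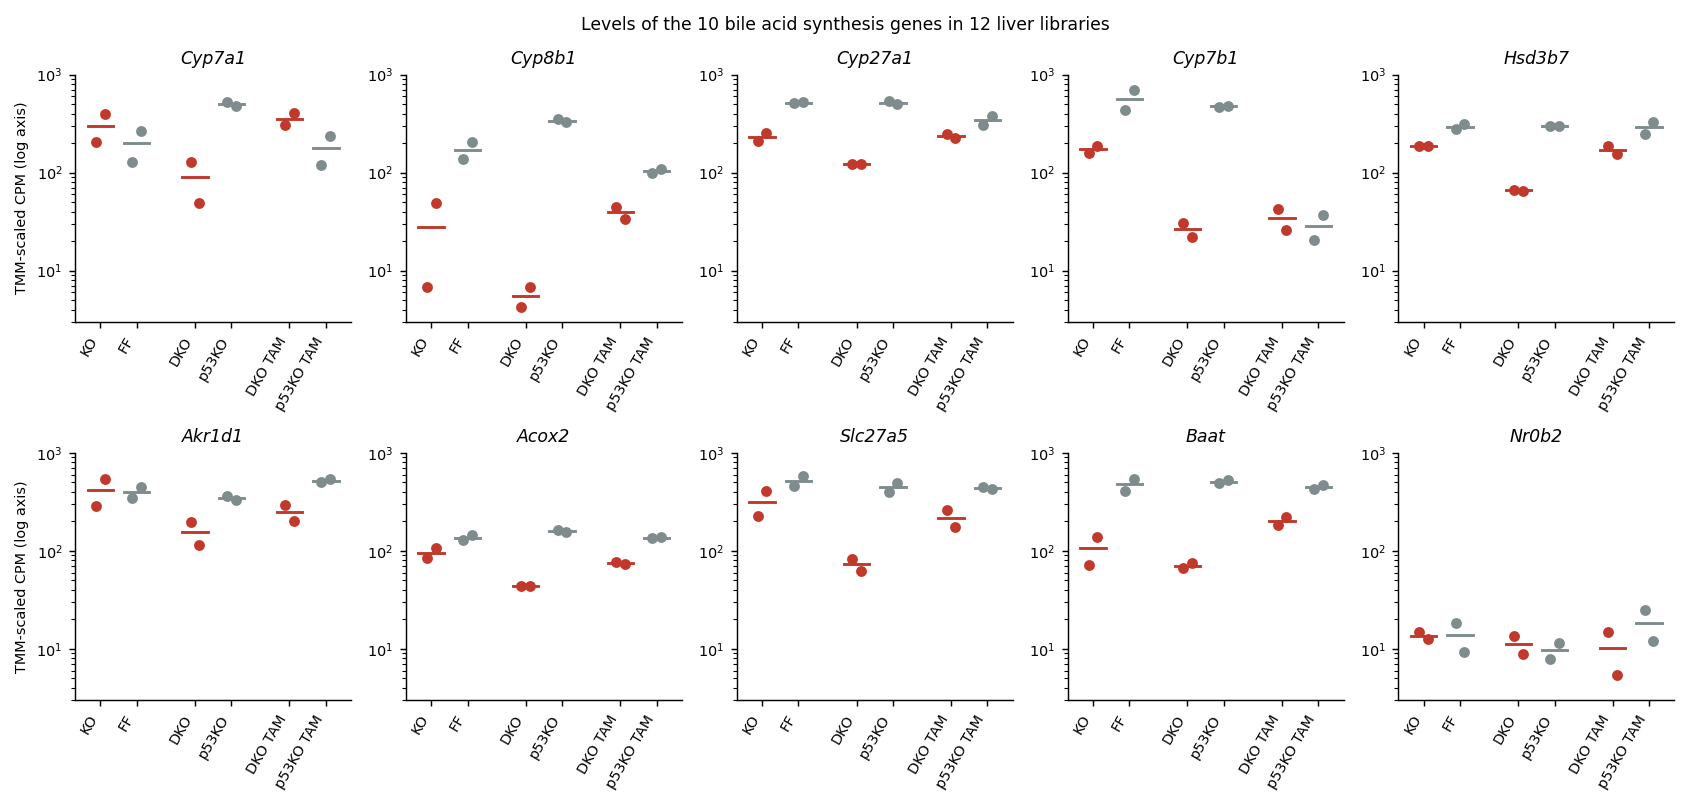
TMM-scaled CPM (log axis) of each gene in every library, with deleted groups in red to the left of their controls in grey and a line at the mean of 2 libraries. The panels show Cyp8b1 between 4.24 and 48.6 CPM in all deleted libraries and between 99.2 and 348 in all controls, while Nr0b2 stays between 5.38 and 24.8 CPM throughout.

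**Figure D2:**
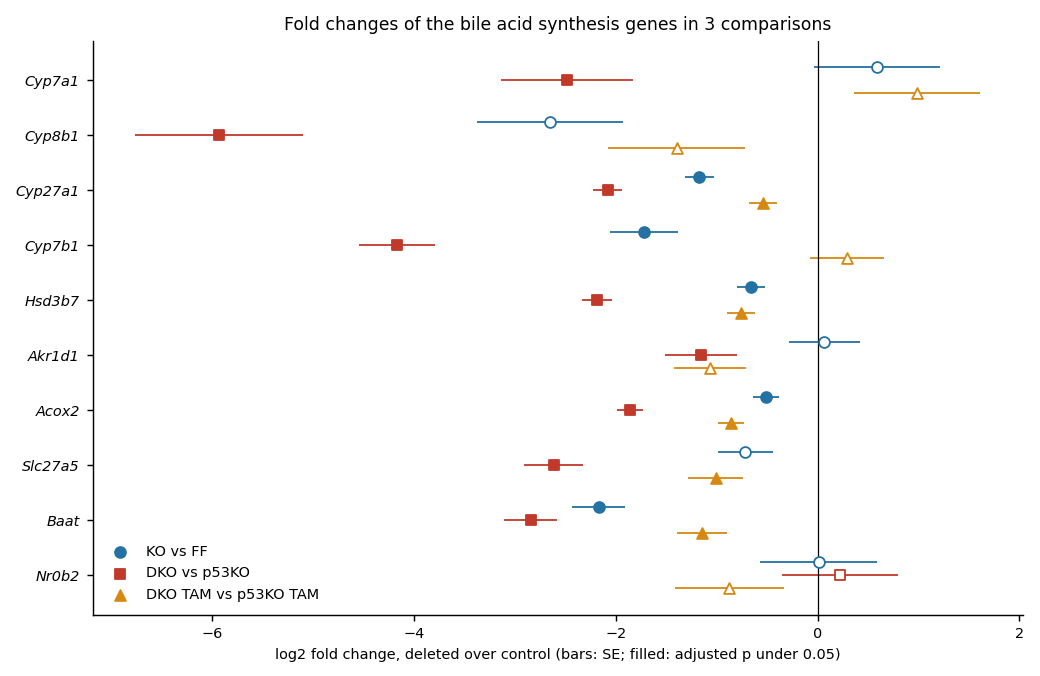
Log2 fold change of each gene, deleted over control, in 3 comparisons; bars are SE and filled symbols have an adjusted p under 0.05. Squares for DKO against p53KO lie furthest to the left for 9 of the 10 genes.

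Cyp7a1 (chromosome 4, 6265612 to 6275631, minus strand, mm10), the rate-limiting enzyme of the classic route, had a pattern of its own. It stood at 203 and 394 CPM in KO livers against 129 and 267 CPM in FF livers, and these groups overlapped (log2 fold change 0.59 ± 0.62 SE, adjusted p = 0.61). It stood at 129 and 49.3 CPM in DKO livers against 519 and 479 CPM in p53KO livers, 5.59-fold lower (-2.48 ± 0.65, adjusted p = 0.018). In DKO TAM livers both libraries, at 306 and 401 CPM, were above those of p53KO TAM livers, at 119.8 and 238 CPM (0.99 ± 0.63, adjusted p = 0.34). The fall in DKO was thus the only call, and the change in DKO minus that in DKO TAM was itself called (-3.47 ± 0.90, adjusted p = 0.032; lost with 6 of its 8 libraries left out singly). The DKO call was lost without DKO 3 (-1.95, adjusted p = 0.079), p53KO 1 (0.064) or p53KO 2 (0.051), and the value was -3.35 without DKO 2.

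Cyp8b1 (chromosome 9, 121914356 to 121916305, minus strand), the enzyme that fixes the share of cholic acid among bile acids, was low in every deleted library. It stood at 6.78 and 48.6 CPM in KO livers against 138 and 204 CPM in FF livers, at 4.24 and 6.76 CPM in DKO livers against 348 and 325 CPM in p53KO livers, and at 44.6 and 33.9 CPM in DKO TAM livers against 99.2 and 108 CPM in p53KO TAM livers. The groups overlapped in none of the 3 comparisons. In DKO the fall was 61.1-fold (-5.93 ± 0.84, adjusted p = 0.0012). The KO value, -2.65 ± 0.73, missed the threshold (adjusted p = 0.060), as did the DKO TAM value, -1.40 ± 0.68 (0.22). The KO libraries lay far apart, with 40 counts in KO 1 and 253 in KO 2. With either one left out the comparison passed (-1.82 without KO 1, -4.67 without KO 2). Such a fit drops the spread between the KO libraries, so it does not settle the call. With all libraries the KO comparison passed in DESeq2 (adjusted p = 0.0097) and limma-voom (0.033). The DKO TAM comparison passed when its 4 libraries were fitted alone (5.4e-05).

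Within libraries the balance of these classic-route enzymes differed, in a ratio that no scaling between libraries can alter. The ratio of Cyp8b1 to Cyp7a1, in counts per kilobase of exon, was 0.0715 and 0.264 in KO libraries against 2.28 and 1.64 in FF libraries, 0.0701 and 0.293 in DKO against 1.43 and 1.45 in p53KO, and 0.311 and 0.181 in DKO TAM against 1.77 and 0.972 in p53KO TAM. All 6 deleted libraries lay between 0.0701 and 0.311 and all 6 controls between 0.972 and 2.28. The mean log2 difference was -3.20, and -3.81, -3.33 and -2.47 in the 3 comparisons in turn. An exact two-sided permutation test of the libraries within each experiment gave p = 0.00926, the smallest that its 216 arrangements allow, or 0.0278 after Benjamini-Hochberg adjustment over the 6 ratios computed. These ratios were not among the tests planned from the labels and were added with the first look at the counts. With any one library left out the mean difference stayed between -3.55 and -2.86.

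**Figure D3:**
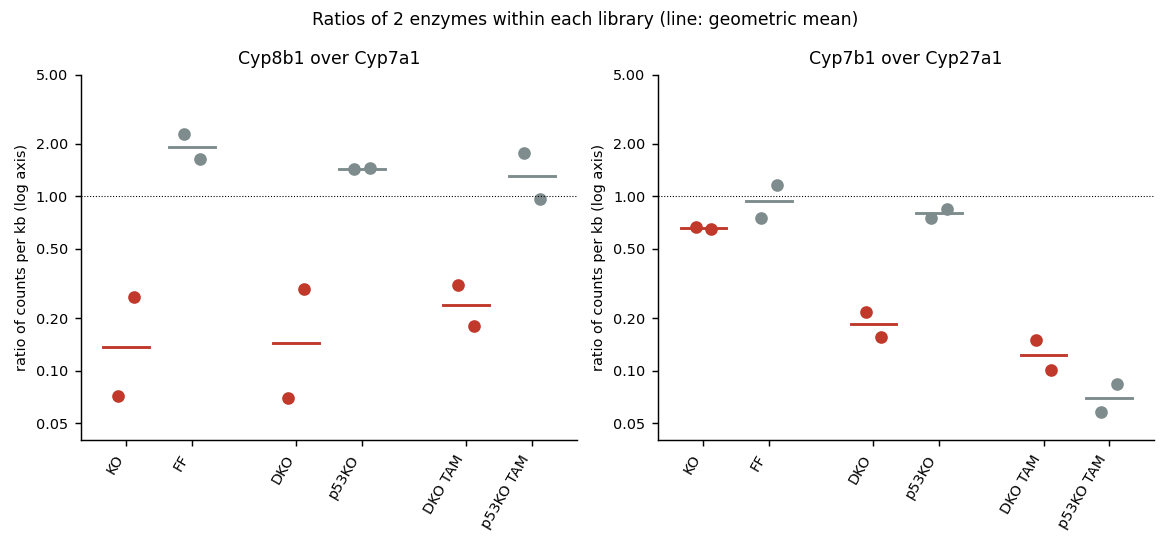
Ratio of counts per kilobase (log axis) of Cyp8b1 to Cyp7a1 on the left and of Cyp7b1 to Cyp27a1 on the right, 1 point per library, with a line at the geometric mean. On the left the 6 deleted libraries lie between 0.0701 and 0.311, below all controls; on the right the p53KO TAM and DKO TAM libraries lie at 0.0578 to 0.150.

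The other ratios were less regular. Cyp7b1 to Cyp7a1 was also lower in the deleted group of every experiment (log2 differences of -2.29, -1.55 and -0.77; exact permutation p = 0.00926, adjusted 0.0278), though over all libraries the deleted and control ranges, 0.123 to 1.51 and 0.297 to 6.52, overlapped. The remaining 4 ratios missed the threshold: adjusted p from the same exact test was 0.139 for Cyp27a1 to Cyp7a1 and for Baat to Slc27a5, 0.256 for Cyp7b1 to Cyp27a1 and 0.963 for Nr0b2 to Cyp7a1.

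Cyp27a1 (chromosome 1, 74713574 to 74737890, plus strand), the mitochondrial enzyme that hydroxylates the sterol side chain, was called lower in every comparison. It stood at 208 and 250.3 CPM in KO livers against 509.5 and 522 CPM in FF livers, a fall of 2.25-fold (-1.17 ± 0.14, adjusted p = 3.4e-05). It stood at 122 CPM in both DKO livers against 537 and 495 CPM in p53KO livers, 4.23-fold lower (-2.08 ± 0.15, 1.0e-08), and at 249 and 223 CPM in DKO TAM livers against 306 and 380.4 CPM in p53KO TAM livers, 1.45-fold lower (-0.54 ± 0.14, 0.013). Deleted and control libraries did not overlap in any comparison. The DKO TAM call was lost with library totals alone (-0.19, adjusted p = 0.27) and without DKO TAM 2 (0.10) or p53KO TAM 2 (0.17).

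Cyp7b1 (chromosome 3, 18071950 to 18243338, minus strand), the oxysterol hydroxylase of the alternative route, fell in the 2 constitutive models. It stood at 159 and 186 CPM in KO livers against 437 and 699 CPM in FF livers (-1.72 ± 0.34, adjusted p = 0.012), a call lost without FF 2 (0.050), KO 1 (0.086) or KO 2 (0.063). It stood at 30.4 and 21.995 CPM in DKO livers against 465.7 and 480.3 CPM in p53KO livers, 18.0-fold lower (-4.17 ± 0.38, 3.0e-05). After tamoxifen both groups were low and overlapped, with 42.8 and 25.7 CPM in DKO TAM and 20.2 and 36.7 CPM in p53KO TAM livers (0.29 ± 0.37, adjusted p = 0.64). The p53KO TAM controls were themselves 16.8-fold below the p53KO controls (-4.07 ± 0.39, adjusted p = 2.8e-04). These controls differ in tamoxifen, and the age of the tamoxifen groups is not given.

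Calls between control groups were about as frequent among these genes as among all tested genes. Between p53KO and FF livers 0 of 10 genes were called, with edgeR, DESeq2 or limma-voom, and none had an unadjusted p under 0.05 in edgeR, beside 0.862% of all genes called. Cyp7a1 had the widest difference there, at 519 and 479 CPM in p53KO livers and 129 and 267 CPM in FF livers (1.33 ± 0.63, adjusted p = 0.49). Between p53KO TAM and p53KO livers 2 of 10 were called, beside 15.8% of all genes: Cyp7b1, and Cyp27a1 (-0.59 ± 0.14, 0.0090). The widest uncalled differences there were those of Cyp8b1 (-1.70 ± 0.66, adjusted p = 0.15) and Cyp7a1 (-1.49 ± 0.63, 0.18). The Cyp27a1 call was lost without p53KO 1 (adjusted p = 0.060) or p53KO TAM 1 (0.14).

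Clock genes also differed between the groups, only in part as Cyp7b1 did. Dbp, a clock output factor known to act on Cyp7a1, stood at 8.64 and 9.61 CPM in KO against 47.7 and 46.1 CPM in FF livers, at 11.5 and 7.19 CPM in DKO against 39.3 and 58.6 CPM in p53KO livers, and at 11.98 and 3.004 CPM in DKO TAM against 2.62 and 0.840 CPM in p53KO TAM livers. Arntl (BMAL1), which peaks when Dbp is low, stood at 38.6 and 35.95 against 11.8 and 7.08 CPM in KO and FF, at 19.1 and 23.5 against 6.66 and 5.58 CPM in DKO and p53KO, and at 22.5 and 37.8 against 47.8 and 49.7 CPM in DKO TAM and p53KO TAM livers. Both FF and p53KO groups thus had high Dbp and low Arntl, and the other groups the opposite. Dbp was alike in KO and DKO livers, whereas Cyp7b1 averaged 173 CPM in KO and 26.2 CPM in DKO livers. Nr1d1 (REV-ERBα), a clock repressor, was called in DKO against p53KO (-1.04 ± 0.31, adjusted p = 0.019) and in p53KO TAM against p53KO (-1.66 ± 0.33, 0.0098).

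Of 11 clock genes tested, 2 were higher and 2 lower in KO against FF, 2 higher and 6 lower in DKO against p53KO, 0 higher and 3 lower in DKO TAM against p53KO TAM, and 3 higher and 6 lower in p53KO TAM against p53KO. Of all tested genes 14.8%, 51.4%, 18.7% and 15.8% were called in these comparisons in turn. Dbp was called in KO against FF (-2.36 ± 0.54, adjusted p = 0.026; lost with any 1 of its 4 libraries left out, at adjusted p 0.092 to 0.15), DKO against p53KO (-2.38 ± 0.50, 0.0049) and p53KO TAM against p53KO (-4.69 ± 0.69, 0.0039). Arntl was called in the same comparisons, at 2.01 ± 0.26 (1.4e-04), 1.78 ± 0.28 (9.0e-05) and 2.98 ± 0.27 (5.8e-06), and lower in DKO TAM (-0.70 ± 0.22, 0.037). The time of day of collection is not given in the labels, and the part of clock phase in the levels of Cyp7a1, Cyp7b1 and the others was not tested.

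**Figure D4:**
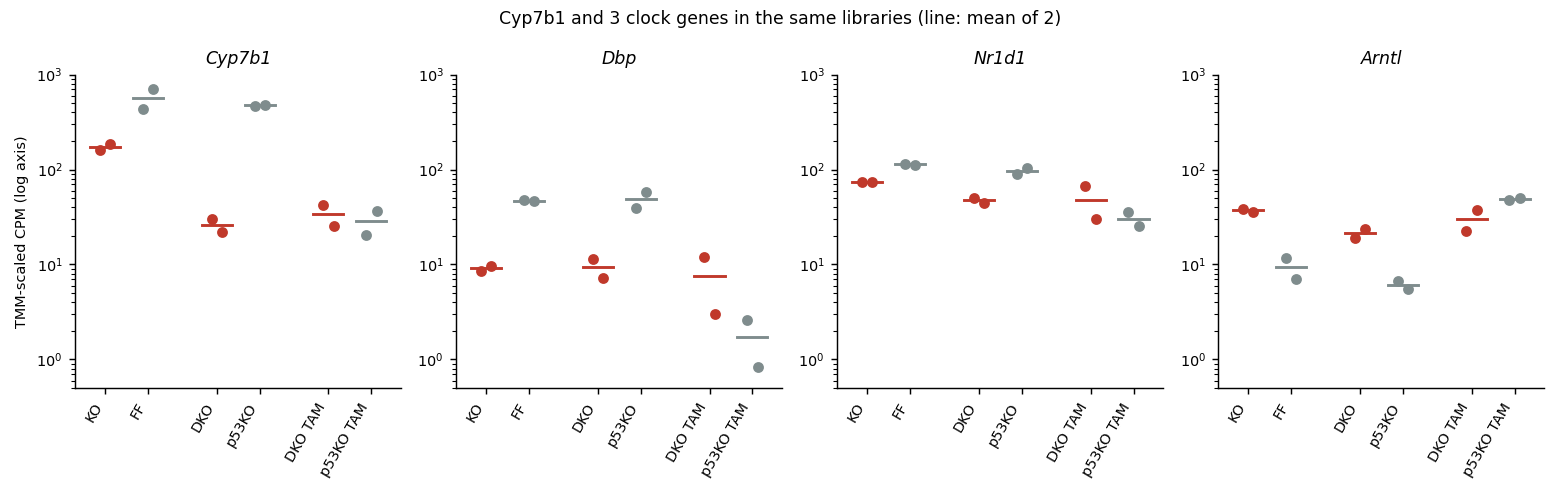
TMM-scaled CPM (log axis) of Cyp7b1 and of the clock genes Dbp, Nr1d1 and Arntl in every library, with a line at the mean of 2. Cyp7b1 and Dbp are high in FF and p53KO libraries (437 to 699 and 39.3 to 58.6 CPM) and lower elsewhere, and Arntl is lowest in those 4 libraries.

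The enzymes that modify the rings behaved differently from each other. Hsd3b7 (chromosome 7, 127800609 to 127803802, plus strand), which oxidises a ring hydroxyl after CYP7A1 or CYP7B1 has acted, stood at 187 and 186 CPM in KO livers against 277 and 312 CPM in FF livers (-0.66 ± 0.14, adjusted p = 0.0050). It stood at 65.8 and 65.4 CPM in DKO against 296 and 302 CPM in p53KO livers, 4.55-fold lower (-2.19 ± 0.15, 8.1e-09), and at 186 and 154 CPM in DKO TAM against 249 and 327 CPM in p53KO TAM livers (-0.76 ± 0.14, 0.0016). No deleted library reached its controls. The KO call was lost without FF 2 (adjusted p = 0.057). In GENCODE M21, Gm49388 and 9430064I24Rik share 1717 and 806 exon bases with Hsd3b7; neither is a row of the tables, so their reads could be counted as Hsd3b7.

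Akr1d1 (chromosome 6, 37530173 to 37568815, plus strand), the reductase that gives bile acids their bent ring, showed the smallest fall among the enzymes in DKO. It stood at 196 and 114 CPM in DKO against 359 and 331 CPM in p53KO livers (-1.15 ± 0.36, adjusted p = 0.027). In KO livers it stood at 286 and 546 CPM against 345 and 448 CPM in FF livers, the deleted libraries lying on either side of the controls (0.07 ± 0.35, 0.93). In DKO TAM livers it stood at 293 and 202 CPM, below 498 and 537 CPM in p53KO TAM livers, a difference that missed the threshold (-1.06 ± 0.36, 0.078) and passed when only those 4 libraries were fitted (0.0014). The DKO call was lost with library totals alone (-0.39, adjusted p = 0.32), with upper quartile scaling (0.058), with no filter on low counts (0.064) and without DKO 3 (0.12), p53KO 1 (0.12) or p53KO 2 (0.081).

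Of the 3 side chain genes, 2 were called lower in KO, 3 in DKO and 3 in DKO TAM livers, beside 7.88%, 25.7% and 10.1% of all tested genes. Acox2 (chromosome 14, 8225511 to 8259019, minus strand), the peroxisomal oxidase that begins side chain shortening, stood at 84.7 and 107 CPM in KO against 129 and 143 CPM in FF livers (-0.51 ± 0.13, adjusted p = 0.014), at 43.7 and 44.2 CPM in DKO against 163 and 155 CPM in p53KO livers (-1.86 ± 0.13, 1.2e-08), and at 77.3 and 72.9 CPM in DKO TAM against 135 and 137 CPM in p53KO TAM livers (-0.86 ± 0.13, 2.2e-04). The groups did not overlap in any comparison. Its KO call was lost with library totals alone (adjusted p = 0.13) and without FF 2 (0.12) or KO 1 (0.17).

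Baat (chromosome 4, 49489418 to 49506558, minus strand), which joins bile acids to taurine or glycine, fell in all 3 experiments. It stood at 72.2 and 139.8 CPM in KO against 409 and 543 CPM in FF livers, 4.50-fold lower (-2.17 ± 0.26, adjusted p = 2.7e-04). It stood at 66.9 and 74.6 CPM in DKO against 489 and 526 CPM in p53KO livers, 7.17-fold lower (-2.84 ± 0.26, 4.8e-06), and at 184 and 221 CPM in DKO TAM against 425 and 472 CPM in p53KO TAM livers, 2.21-fold lower (-1.15 ± 0.25, 0.0090). All 6 deleted libraries were below all 6 controls. The KO call missed the threshold when only its 4 libraries were fitted (adjusted p = 0.053), and the DKO TAM call without DKO TAM 1 (0.075) or p53KO TAM 2 (0.054).

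Slc27a5 (chromosome 7, 12988346 to 12998192, minus strand), the ligase that charges bile acids with coenzyme A before BAAT acts, stood at 228 and 404 CPM in KO against 456 and 580.0 CPM in FF livers (-0.71 ± 0.28, adjusted p = 0.12). It stood at 82.3 and 62.9 CPM in DKO against 402 and 488 CPM in p53KO livers, 6.13-fold lower (-2.62 ± 0.29, 4.0e-05), and at 259 and 177 CPM in DKO TAM against 451 and 428 CPM in p53KO TAM livers (-1.01 ± 0.28, 0.031). The groups were apart in every comparison, and the KO comparison passed with DESeq2 (0.028). It also passed without KO 2 (-1.20), a fit that leaves 1 KO library and does not settle the call. The DKO TAM call was lost with library totals alone (0.066), with no filter on low counts (0.087) and without DKO TAM 2 (0.18), p53KO TAM 1 (0.13) or p53KO TAM 2 (0.096).

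Nr0b2 (chromosome 4, 133553390 to 133556536, plus strand), the repressor SHP, had the lowest mean level per kilobase of the 10 in 4 of the 6 groups. It stood at 14.7 and 12.5 CPM in KO against 18.3 and 9.33 CPM in FF livers (0.01 ± 0.58, adjusted p = 0.99), and at 13.6 and 8.82 CPM in DKO against 7.85 and 11.6 CPM in p53KO livers (0.22 ± 0.58, 0.77). It stood at 14.8 and 5.38 CPM in DKO TAM against 24.8 and 12.1 CPM in p53KO TAM livers (-0.88 ± 0.54, 0.32). The groups overlapped in each comparison. Its SEs were 0.54 to 0.58 on the log2 scale with 43 to 170 counts per library, and those of Cyp7a1 were 0.62 to 0.65 with 572 to 3204 counts.

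On a scale per kilobase of exon, levels of different genes can be set side by side. Cyp27a1 was the most abundant gene in DKO livers and in p53KO, with means of 64.6 and 273 counts per kilobase and 1e6 counts, and Nr0b2 stood at 10.01 and 8.69. Cyp8b1 averaged 2.82 in DKO livers, below Nr0b2, against 173 in p53KO livers. As shares of the per-kilobase level of all 10 genes, Cyp7a1 took 8.92% ± 1.62 in KO against 3.05% ± 1.01 in FF, 7.15% ± 3.64 in DKO against 7.50% ± 0.464 in p53KO, and 12.9% ± 3.54 in DKO TAM against 3.74% ± 1.45 in p53KO TAM livers (SD, n = 2 each). Cyp8b1 took 1.61% ± 1.48 in KO against 5.75% ± 0.583 in FF, 1.01% ± 0.468 in DKO against 10.8% ± 0.578 in p53KO, and 3.01% ± 0.317 in DKO TAM against 4.72% ± 0.126 in p53KO TAM livers. These shares are a description and were not tested.

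The following 5 genes changed more in DKO than in KO livers, by a test of the difference between the 2 effects: Cyp27a1 (-0.91 ± 0.20, adjusted p = 0.0038), Cyp7b1 (-2.45 ± 0.48, 0.0082), Hsd3b7 (-1.53 ± 0.20, 1.1e-04), Acox2 (-1.35 ± 0.18, 1.2e-04) and Slc27a5 (-1.90 ± 0.39, 0.0073). That was 5 of 10, beside 22.7% of all genes called. Cyp7a1 (-3.07 ± 0.90, 0.054) and Cyp8b1 (-3.28 ± 1.06, 0.073) missed the threshold. Without KO 1 the calls also took in Cyp8b1 (-4.13), Akr1d1 (-1.63) and Baat (-1.08), with the lone KO library taken to vary like the others. With library totals alone the call for Cyp27a1 was lost (adjusted p = 0.12). Between DKO and DKO TAM effects 8 of 10 were called, all but Akr1d1 and Nr0b2, beside 27.6% of all genes. The count was 5 without DKO 3. Between DKO TAM and KO effects 0 of 10 were called, beside 2.04%; 3 had an unadjusted p under 0.05 in edgeR, and DESeq2 called 2, Cyp7b1 and Baat. Age goes with these differences, as does the p53 genotype wherever KO is one side. For DKO TAM the kind of Cre, tamoxifen and the time since deletion go with them too. None of these can be told apart from the differences.

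Of 37 other tested genes of the pathway, 11 were lower and 2 higher in KO against FF, 27 lower and 0 higher in DKO against p53KO, and 7 lower and 3 higher in DKO TAM against p53KO TAM, with median log2 fold changes of -0.45, -0.97 and -0.14. Of all tested genes 7.88%, 25.7% and 10.1% were called lower and 6.92%, 25.7% and 8.61% higher in these comparisons. The same shares stand beside the counts by role below. With library totals alone the counts were 8 lower and 4 higher, 17 lower and 11 higher, and 4 lower and 12 higher. Cyp46a1, Ch25h and Slc51a were too low to test. Without FF 1, FF 2 or KO 1 the KO count was 8, 7 or 9 in all, and without p53KO TAM 2 the DKO TAM count was 6.

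Among 19 enzymes and sterol carriers, 5 were lower and 1 higher in KO, 13 lower in DKO, and 4 lower and 2 higher in DKO TAM livers. Cyp2c70, which makes the muricholic acids typical of mice, stood at 270.0 and 210.3 CPM in KO against 1089 and 1071 CPM in FF livers, at 131 and 120.0 CPM in DKO against 758 and 929 CPM in p53KO livers, and at 85.8 and 166 CPM in DKO TAM against 695 and 1046 CPM in p53KO TAM livers. It was called lower in all 3 (-2.17 ± 0.30, adjusted p = 0.0011; -2.75 ± 0.31, 3.9e-05; -2.79 ± 0.31, 2.2e-04), 4.49-fold, 6.71-fold and 6.92-fold. Akr1c6, a steroid dehydrogenase, was also called in all 3 (-0.99 ± 0.18, 0.0015; -2.52 ± 0.19, 2.1e-08; -1.35 ± 0.18, 8.5e-05). Scp2, a sterol carrier and peroxisomal thiolase, was called in KO (-0.72 ± 0.15, 0.0043) and DKO (-2.35 ± 0.16, 8.5e-09) and stood at 0.19 ± 0.15 in DKO TAM. Amacr, the racemase of the side chain, was called in DKO (-0.85 ± 0.13, 5.3e-05) and stood at -0.22 ± 0.13 (0.29) in KO and -0.14 ± 0.13 (0.50) in DKO TAM.

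Regulators of synthesis, like all tested genes, were called most often in DKO livers. Of 13, 4 were lower in KO, 10 lower in DKO and 0 lower and 1 higher in DKO TAM livers. Beside this, 7.88%, 25.7% and 10.1% of all tested genes were called lower. Nr1h4 (FXR) stood at 86.6 and 68.3 CPM in DKO against 178 and 165 CPM in p53KO livers (-1.15 ± 0.14, adjusted p = 4.5e-06), and was not called in KO (0.12 ± 0.14, 0.61) or DKO TAM (0.18 ± 0.14, 0.40). Nr5a2 (LRH-1) likewise stood at 93.5 and 87.6 CPM in DKO against 175 and 179 CPM in p53KO livers (-0.97 ± 0.13, 8.7e-06), and at -0.35 ± 0.13 (0.074) in KO and -0.15 ± 0.13 (0.45) in DKO TAM. Hnf4a, a hepatocyte factor that activates Cyp7a1 and Cyp8b1, was called in DKO (-0.66 ± 0.18, 0.0055) but stood at 0.10 there with library totals alone. Klb, the coreceptor for the intestinal hormone, was called in DKO (-0.83 ± 0.26, 0.023) and stood at -0.79 ± 0.28 (0.091) in KO, and its partner Fgfr4 in DKO TAM, where it was higher (0.47 ± 0.14, 0.031). Fgfr4 in DKO stood at -0.12 ± 0.15 with TMM and at 0.65 with library totals alone.

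Of the transporters of bile acids and bile lipids, Slc10a1 and Abcc3 were called lower in every comparison and the others were not. Of 5 tested, 2 were lower and 1 higher in KO, 4 lower in DKO and 3 lower in DKO TAM livers. Abcb11, the canalicular bile salt pump and a target of FXR, stood at 465.8 and 405 CPM in DKO against 1384 and 1386 CPM in p53KO livers (-1.67 ± 0.22, adjusted p = 2.6e-05) and at 661 and 409 CPM in DKO TAM against 1131 and 1577 CPM in p53KO TAM livers (-1.34 ± 0.22, 9.6e-04). In KO livers it stood at 879 and 1206 CPM against 1548 and 1549 CPM in FF livers (-0.57 ± 0.22, 0.099). Slc10a1, which takes bile acids up from blood, was called lower in all 3 comparisons (-1.11 ± 0.23, 0.0055; -2.91 ± 0.24, 5.8e-07; -0.86 ± 0.22, 0.018); its DKO TAM call was lost with library totals alone (adjusted p = 0.066) and without DKO TAM 1 (0.10), DKO TAM 2 (0.10) or p53KO TAM 2 (0.14). Abcc3, an efflux pump of the blood-facing membrane, was called at -1.11 ± 0.21 (0.0035), -1.62 ± 0.21 (3.1e-05) and -1.62 ± 0.21 (2.0e-04). Abcb4, which moves phospholipid into bile, was the one called higher in KO (0.49 ± 0.16, 0.047), a call lost without FF 1 (0.30), FF 2 (0.064) or KO 2 (0.33). It was called lower in DKO (-0.54 ± 0.16, 0.0087), a call lost without DKO 2 (0.072) or with upper quartile scaling (0.088), and its value was 0.22 with library totals alone. In DKO TAM it stood at 0.25 ± 0.16 (0.30). Slc51b, a subunit of a bile acid exporter, was called in none and stood at 2.14 ± 0.88 (0.053) in DKO. Abcc3, Abcb4 and Slc51b were added to the named genes after their values were seen.

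**Figure D5:**
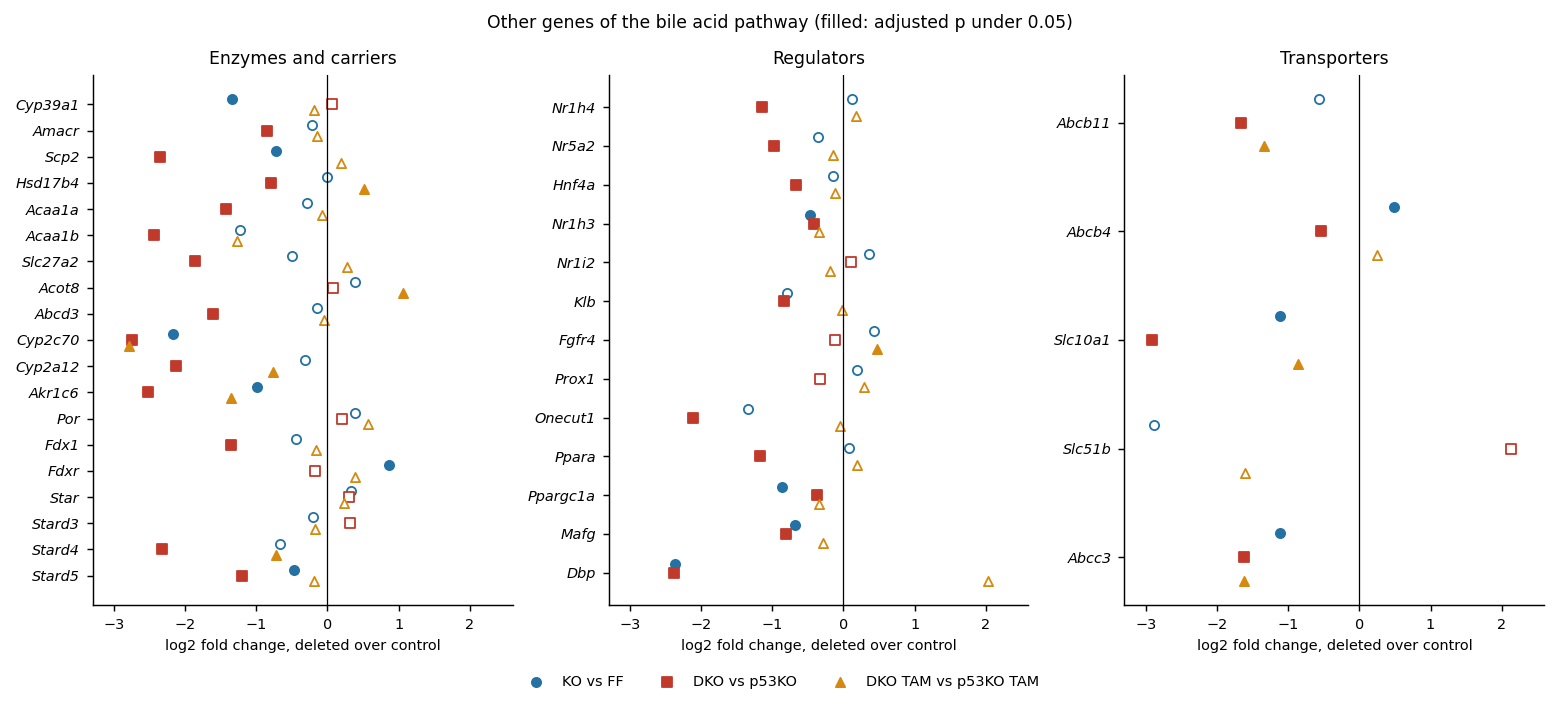
Log2 fold change, deleted over control, of 37 other genes of the bile acid pathway in the 3 comparisons, by role; filled symbols have an adjusted p under 0.05. Filled squares for DKO against p53KO all lie left of 0 on the TMM scale (27 genes; 17 lower and 11 higher with library totals alone), and Cyp2c70 is filled in every comparison.

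Markers of liver cell types moved in the same comparisons. Of 9 hepatocyte markers, 5, 9 and 6 were called lower in KO, DKO and DKO TAM, with median log2 fold changes of -0.50, -1.65 and -0.67, beside -0.69, -2.33 and -0.87 for the 10 bile acid genes. Of all tested genes 7.88%, 25.7% and 10.1% were called lower in these comparisons, and 6.92%, 25.7% and 8.61% higher. Of 6 tested cholangiocyte markers 5 were called higher in DKO, of 7 macrophage markers 7 and of 8 stellate and fibroblast markers 8. Their summed CPM was 260.0 to 289 in DKO against 53.8 to 56.8 in p53KO livers for cholangiocytes, 1056 to 1129 against 465 to 497 for macrophages, and 1134 to 1231 against 264 to 267 for stellate cells and fibroblasts. In KO livers the corresponding calls were 0 of 6, 1 of 7 and 1 of 8 higher, and in DKO TAM 1 of 6, 1 of 7 and 0 of 8, where Acta2, a marker of activated stellate cells and of smooth muscle, was lower (-2.43 ± 0.38, adjusted p = 3.8e-04). Of 6 endothelial markers 1 was higher in KO, 1 was higher and 3 lower in DKO, and 3 were lower in DKO TAM. Their summed CPM was 574 to 662 in KO against 663 to 723 in FF livers, 450 to 531 in DKO against 656 to 715 in p53KO livers, and 383 to 420.3 in DKO TAM against 671 to 746 in p53KO TAM livers. The 5 lymphocyte markers summed to at most 5.01 CPM in any library. The part of cell composition in the falls of the bile acid genes was not tested.

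Set against Alb within each library, the 10 genes separated. Between DKO and p53KO livers the log2 difference per Alb was -3.93 for Cyp8b1 and -2.15 for Cyp7b1, but -0.04 for Cyp27a1, -0.14 for Hsd3b7 and 0.19 for Acox2, since Alb itself fell by 2.04 on the log2 scale. Between KO and FF livers it was -2.19 for Cyp8b1 and -1.22 for Baat, and 1.62 for Cyp7a1. Between DKO TAM and p53KO TAM livers, where Alb fell by 2.09, all 10 were above 0, from 0.68 for Cyp8b1 to 3.15 for Cyp7a1. Of the 9 hepatocyte markers Alb fell furthest there, followed by Apoa1 (-0.99), and the median of the 9 was -0.67. Values above 0 in that comparison thus mean a smaller fall than that of Alb, or a rise. A ratio to one transcript shows unequal change and does not show which of its members moved.

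Profiles over the 12 libraries were compared by the root mean square difference of centred log2 CPM. Among the 10 genes the closest were Hsd3b7 and Acox2 (0.23) and Cyp27a1 and Acox2 (0.24), and the furthest were Cyp8b1 and Nr0b2 (2.16). Among the 10174 genes averaging 5 CPM or more, the nearest to Cyp7a1 were Cadm4 (0.54), Lrit2 (0.59) and Scnn1a (0.59). The nearest to Cyp8b1 were Pigr (0.82), Foxq1 (0.83) and Ces1e (0.84), none of them close, and the nearest to Nr0b2 were Gm6484 (0.29), Exoc3l (0.31) and Elk3 (0.34). These likenesses are descriptions over 12 shared libraries.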

How the data were processed

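RNA of whole liver was made into libraries with a stranded total RNA kit, per the labels' protocols. The authors deposited unnormalised counts of reads for each gene; per the submitters' processing notes CASAVA 1.82, HISAT2 and featureCounts were used with mm10 (GRCm38). Headers of 4 files name featureCounts 1.6.4 without a strand option, so reads of antisense or overlapping genes may be shared. Of the genes, 13693 kept by filterByExpr (minimum count 10) were tested; they held 99.9% of counts.

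A model of the 6 group means over 12 libraries (6 residual degrees of freedom, common coefficient of biological variation 0.124) was fitted with edgeR 4.0.16 in R 4.3.3, using TMM, a robust quasi-likelihood F test and Benjamini-Hochberg adjustment. Unless another tool is named, p-values of genes are adjusted p from it, and SE is the log2 fold change over the square root of F. On simulated counts with 200 changed genes, 68%, 68% and 71% of 2-fold changes were recovered in the 3 deletion comparisons, with 14, 16 and 13 false calls. In the data 2026, 7041 and 2559 genes were called, so these rates do not cover changes that wide. Other settings tried were scaling by RLE, by upper quartile and by library totals, no filter, DESeq2 1.42.0, limma-voom (limma 3.58.1), the compared libraries alone, the replicate number as a block, a threshold of 0.01 and each library left out.

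The members and lists were chosen with earlier results of these data known. The text names the 10 members, fixed regulators and marker genes, and up to 5 pathway genes per comparison by smallest p. Libraries are named by the numbers in their titles (DKO 2 and 3), whereas the block and the pairing check used the replicate numbers in the descriptions, where these are 1 and 2. Samples of the same description number deviated together with correlations of 0.110, -0.0706 and -0.0130, and were not treated as pairs. No 2 libraries of a group agreed within sampling noise.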

Additional observations from a re-analysis of the deposited data

Results flagged for a closer look

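Differences between 2 experiments in the log2 effect of the deletion were tested with edgeR's quasi-likelihood test (adjusted p under 0.05). For DKO minus KO 5 of the 10 genes passed, beside 22.7% of all tested genes. For DKO minus DKO TAM 8 of 10 passed, beside 27.6%, and for DKO TAM minus KO 0 of 10, beside 2.04%. The lower value was always in DKO. Relative to KO, the log2 effect in DKO differed by -0.91 for Cyp27a1, -2.45 for Cyp7b1, -1.53 for Hsd3b7, -1.35 for Acox2 and -1.90 for Slc27a5. Relative to DKO TAM, it differed by -3.47 for Cyp7a1, -4.54 for Cyp8b1, -1.54 for Cyp27a1, -4.46 for Cyp7b1, -1.43 for Hsd3b7, -0.997 for Acox2, -1.60 for Slc27a5 and -1.69 for Baat. For Cyp7b1 most of the second difference is the DKO effect itself (-4.17). The DKO TAM and p53KO TAM libraries were both low for Cyp7b1 (20.2 to 42.8 CPM), with an effect of 0.29 between them. The p53KO TAM controls also stood below the p53KO controls for Cyp7a1 (-1.49, not called), Cyp8b1 (-1.70, not called) and Cyp27a1 (-0.59, called). That gap between controls enters the second difference of these genes too. The calls for Cyp7a1 and Cyp8b1 against DKO TAM were each lost with 6 of the 8 single libraries left out, and that for Slc27a5 with DKO 3 (adjusted p = 0.053) or p53KO 2 (0.056) left out. The 2 experiments of a pair differ in more than the deletion, and those causes cannot be told apart.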

How the results depend on the processing

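Over 10 genes, 8 comparisons and the alternatives, 984 values kept their side of the threshold, 53 lost a call and 23 gained one. No member's called direction reversed. Some uncalled values near 0 changed sign, such as Akr1d1 in KO against FF (-0.49 to 0.46 with single libraries left out). Library totals alone gave 3 members called in DKO TAM against p53KO TAM, 16 pathway genes there, and 3294 and 4932 genes in all for KO against FF (550 lower, 2744 higher) and DKO TAM against p53KO TAM (586 lower, 4346 higher); for DKO against p53KO it gave 959 lower and 8823 higher, and upper quartile scaling 2435 and 4662. Library totals alone also turned DKO values of Fdxr (0.59), Hnf4a (0.10), Nr1h3 (0.36), Fgfr4 (0.65), Ppargc1a (0.40), Abcb4 (0.22) and Polr2m (0.068). A threshold of 0.01 left 3 members, 7 pathway genes and 960 genes in KO against FF, 3, 6 and 1201 in DKO TAM against p53KO TAM, and 5 members for DKO minus DKO TAM. DESeq2 gave 2 members for DKO TAM minus KO.

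With single libraries left out, members called numbered 2 to 6 in KO, 7 to 9 in DKO and 2 to 4 in DKO TAM, 5 to 8 for DKO minus KO, 5 to 7 for DKO minus DKO TAM, 0 to 2 for DKO TAM minus KO, 0 to 0 for p53KO against FF and 1 to 2 for p53KO TAM against p53KO. Pathway genes numbered 7 to 11, 22 to 26 and 6 to 10, and all genes 1087 to 1285, 5529 to 6246 and 1188 to 1952, in KO, DKO and DKO TAM. The lowest member counts came without FF 2 (2 in KO) and without p53KO TAM 2 (2 in DKO TAM, where 3 were left without DKO TAM 2). With the replicate number of the descriptions as a block, members called were 6, 9 and 7, gaining Slc27a5 in KO (adjusted p = 0.015) and Akr1d1 (0.0051) and Nr0b2 (0.035) in DKO TAM, and pathway genes 13, 27 and 12, and all genes 1924, 6860 and 2411. A pair of libraries per group says little of its own spread, which was pooled over groups; where 1 library is left out, the lone one is taken to vary like the others. The cause of these changes was not tested.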
